A study of Mus musculus with 4 samples.

Results

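The 10 genes described here encode the enzymes that cut and rejoin antigen receptor genes in developing lymphocytes. They were the rows of the 4 deposited expression tables whose symbol was Rag1, Rag2, Dntt, Xrcc5, Xrcc6, Prkdc, Dclre1c, Xrcc4, Lig4 or Nhej1. All 10 were found once in each table, among 24411 gene symbols. Rag1, Rag2 and Dntt were treated as the 3 lymphoid-specific members and the other 7 as ubiquitous members. The study profiled RNA of B220-positive B cells, sorted by flow cytometry from the bone marrow of mouse tibiae and femora. It compared 2 libraries from wildtype mice with 2 libraries labelled Arid5b overexpression; Arid5b encodes a DNA-binding protein of the ARID family. How Arid5b was overexpressed, the strain, age and sex of the mice and whether the 4 libraries came from separate animals are not given in the sources used here. If the libraries did not come from separate animals, the p-values measure only technical spread.

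V(D)J recombination assembles immunoglobulin and T cell receptor genes from separate gene segments. The RAG1 and RAG2 proteins together cut the DNA at recombination signal sequences, and are made in bursts during the pro-B and pre-B stages in the bone marrow. The broken ends are rejoined by classical non-homologous end joining, a repair pathway that all cells possess. The Ku heterodimer binds the ends, the DNA-dependent protein kinase and the nuclease Artemis open the hairpin-sealed coding ends, and DNA ligase IV with XRCC4 and XLF seals them, while terminal deoxynucleotidyl transferase adds untemplated bases at the junctions.

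The 4 libraries held between 14196665 and 20356404 reads, of which the ribosomal transcript Rn45s took between 25.7% and 30.5%. Arid5b itself was counted in 2993 and 2465 reads in wildtype libraries 1 and 2, in 58127 reads in overexpression-labelled library 1 and in 2770 reads in overexpression-labelled library 2. Its deposited log2 value was 4.41 above the wildtype mean in overexpression-labelled library 1 (SE 0.126, limma adjusted p = 1.28e-11) and -0.22 from it in overexpression-labelled library 2 (SE 0.145, limma adjusted p = 0.493). The label of the second library was thus not matched by a higher Arid5b count, and overexpression-labelled libraries 1 and 2 (below, labelled library 1 and labelled library 2) are described one at a time. Pearson's r of the deposited values across genes, which are not independent replicates, was 0.984 between the wildtype libraries, 0.974 and 0.982 between labelled library 2 and each wildtype library, and between 0.860 and 0.864 for labelled library 1 with each of the others. The 9 B lineage markers, among them Ptprc, which encodes the sorted antigen, had reads in every library and summed to between 4823 and 8016 CPM (counts scaled to the library total, here without Rn45s). In labelled library 1, which had the lowest sum, 6 of the 9 fell and 3 rose against wildtype by limma (5 fell under 3 other scalings), with a median of -0.92. Ptprc itself was among those that fell: it had 35704 and 27790 reads in wildtype, 5683 in labelled library 1 and 38260 in labelled library 2, and a difference of -2.47 in labelled library 1 (SE 0.116, limma adjusted p = 1.16e-09).

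The recombinase genes lie together on mouse chromosome 2 and are transcribed towards each other. In GENCODE's GRCm38 annotation, Rag1 spans chr2:101638282-101649501 on the minus strand and Rag2 spans chr2:101624718-101632529 on the plus strand. Dntt lies at chr19:41029275-41059525 on the plus strand and Lig4 at chr8:9969049-9977686 on the minus strand. The 250 bases just upstream of the annotated start are printed for these 4 genes, because Rag1, Rag2 and Lig4 had the largest values in labelled library 1 relative to wildtype and Dntt is the lymphoid-specific member that did not follow Rag1 and Rag2. They come from RefSeq's GRCm38.p6 annotation, run 5′ to 3′ along the gene's own strand, and have each CpG dinucleotide in capitals. The windows are chr2:101649533-101649782 (minus) for Rag1, chr2:101624462-101624711 (plus) for Rag2, chr19:41029025-41029274 (plus) for Dntt and chr8:9977681-9977930 (minus) for Lig4.
Rag1: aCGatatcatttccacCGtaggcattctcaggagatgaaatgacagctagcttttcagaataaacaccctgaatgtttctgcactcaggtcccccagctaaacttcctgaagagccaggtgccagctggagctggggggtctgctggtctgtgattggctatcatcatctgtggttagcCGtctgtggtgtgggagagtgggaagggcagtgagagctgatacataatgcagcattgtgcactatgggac
Rag2: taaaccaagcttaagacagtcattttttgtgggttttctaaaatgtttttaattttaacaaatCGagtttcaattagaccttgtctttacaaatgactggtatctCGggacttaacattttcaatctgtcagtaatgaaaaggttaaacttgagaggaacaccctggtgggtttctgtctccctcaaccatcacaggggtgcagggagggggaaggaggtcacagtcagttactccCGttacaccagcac
Dntt: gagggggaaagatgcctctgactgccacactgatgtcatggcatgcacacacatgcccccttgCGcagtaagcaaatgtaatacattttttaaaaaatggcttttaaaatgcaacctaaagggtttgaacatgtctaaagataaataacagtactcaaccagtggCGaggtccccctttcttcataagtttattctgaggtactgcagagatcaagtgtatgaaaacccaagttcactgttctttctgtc
Lig4: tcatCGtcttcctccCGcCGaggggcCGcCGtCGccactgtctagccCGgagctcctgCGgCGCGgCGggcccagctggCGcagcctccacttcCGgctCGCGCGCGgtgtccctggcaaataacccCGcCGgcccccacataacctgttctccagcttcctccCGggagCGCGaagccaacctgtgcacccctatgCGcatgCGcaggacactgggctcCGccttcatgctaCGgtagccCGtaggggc

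The 3 lymphoid-specific windows held fewer CpG dinucleotides than the median window, and so did the Xrcc5 window. Rag1 and Rag2 held 3 each and Dntt held 2, whereas the Lig4 window held 27. Over all 32851 such windows in RefSeq the median was 6 CpG, with quartiles at 2 and 16. RefSeq windows were matched for 9 of the 10 members. Among the ubiquitous members, Xrcc6 (25) and Xrcc4 (26) resembled Lig4, while Xrcc5 (5), Dclre1c (8) and Nhej1 (9) had intermediate counts. CpG content therefore did not sort the members by their direction in labelled library 1. Lig4 was above the upper quartile and Rag1 below the median, and both were higher there, as the values that follow show.

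Short motifs were searched on both strands of the same windows. The general E-box CANNTG, whose matches include CAGGTG, occurred 3 times in the Rag1 window, 1 of them as CAGGTG, 3 times in that of Dntt, and 1 time each in those of Rag2 and Lig4, and 66.2% of all windows held at least 1. CAGGTG itself was in 17.2% of all windows. TGTGGT, the core of the Runx motif, occurred 2 times upstream of Rag1 and in no other member's window, and 14% of all windows held it. AATAC, one of a pair of short A/T-rich words searched as letters bound by Arid5b-type domains, occurred 1 time upstream of Dntt and 2 times upstream of Nhej1, with a share of 21.3% of all windows. AATAT occurred 1 time upstream of Xrcc5, against 23.3% of all windows. GTAAACA and TATAAA were also searched and had no match in any member's window, against 3.17% and 12.4% of all windows. CTTTGA matched 1 time upstream of Dclre1c only (13.8% of all windows). CCAAT matched upstream of Rag1, Xrcc5 and Dclre1c (33.8%). GGGCGG matched only in windows of ubiquitous members, namely Xrcc6, Dclre1c, Xrcc4, Nhej1 and another window of Lig4 (32.7%). That Lig4 window, chr8:9976312-9976561 (minus), lies 1369 bases from the outermost start and had 2 matches. The printed Lig4 window had 0. A match describes the letters only, and the lack of one says nothing about whether a factor binds.

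Rag1, the catalytic subunit of the recombinase, was near absent from 3 of the 4 libraries. It was counted in 4 reads in wildtype library 1, 0 in wildtype library 2, 4328 in labelled library 1 and 0 in labelled library 2. Its deposited log2 values were 5.67, 4.95, 13.32 and 4.95 in that order, where 4.95 is the value every gene without reads was given. Labelled library 1 stood far above the other 3, and the 2 groups as labelled overlapped because labelled library 2 was at the floor.

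Rag2, the partner subunit that reads histone marks and is needed for cutting, had the same shape at a lower count. It had 5 reads in wildtype library 1, 0 in wildtype library 2, 993 in labelled library 1 and 0 in labelled library 2. The deposited log2 values were 5.76, 4.95, 11.22 and 4.95. A count of 0 allows up to 3 reads, which is 0.284 CPM in wildtype library 2 and 0.206 in labelled library 2, counting error only.

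Pooling the wildtype reads, normalised Rag1 reads were 2192 times higher in labelled library 1 (95% exact binomial interval 856 to 8049) and normalised Rag2 reads 402 times higher (172 to 1242). These intervals cover counting error between libraries, not the spread between mice. Against labelled library 2, where both genes had no read, Rag1 was at least 1719-fold higher and Rag2 at least 394-fold higher, with a floor of 3 reads in that library. On the deposited scale the differences from the wildtype mean were 8.01 for Rag1 and 5.87 for Rag2, which the floor of the scale holds down. Neither gene was tested with the others, since the fit was limited to genes reaching 10 reads, scaled to a library of median size, in 2 or more libraries. With that minimum asked of 1 library only, both entered the fit through labelled library 1 alone and so had to differ; their limma adjusted p-values were then 0.0111 and 0.0136, among 19.7% of genes called higher.

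Dntt, which encodes terminal deoxynucleotidyl transferase and is known as a pro-B and pro-T cell gene, was low throughout. It was counted in 23 and 10 reads in the wildtype libraries, 4 in labelled library 1 and 22 in labelled library 2. Labelled library 1, where Rag1 and Rag2 were high, thus held the lowest Dntt count of the 4. The deposited difference of -0.71 did not pass (SE 0.443, limma adjusted p = 0.181), and the ratio of normalised reads was 0.246 with a counting interval of 0.0632 to 0.69. In labelled library 2 the difference was 0.13 (SE 0.439, limma adjusted p = 0.918). Other cell types that can carry Dntt reads also differed between libraries: the summed plasmacytoid dendritic cell markers were 217, 104, 6.5 and 119 CPM, and the T cell markers 386, 363, 35.5 and 313, in wildtype libraries 1 and 2 and labelled libraries 1 and 2. Most of the T cell sum was Cd2, which mouse B cells also express. Without it the other 9 markers summed to 60, 53.7, 12.5 and 35.4. Cd8b1 was the only T cell marker listed that was higher in labelled library 1, by 1.44. It had 51 and 13 reads in wildtype and 110 in that library, and made up most of the sum left there. Of these lists, 3 of 8 and 4 of 10 genes had no reads in labelled library 1. Their part in the Dntt counts was not tested.

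**Figure D1:**
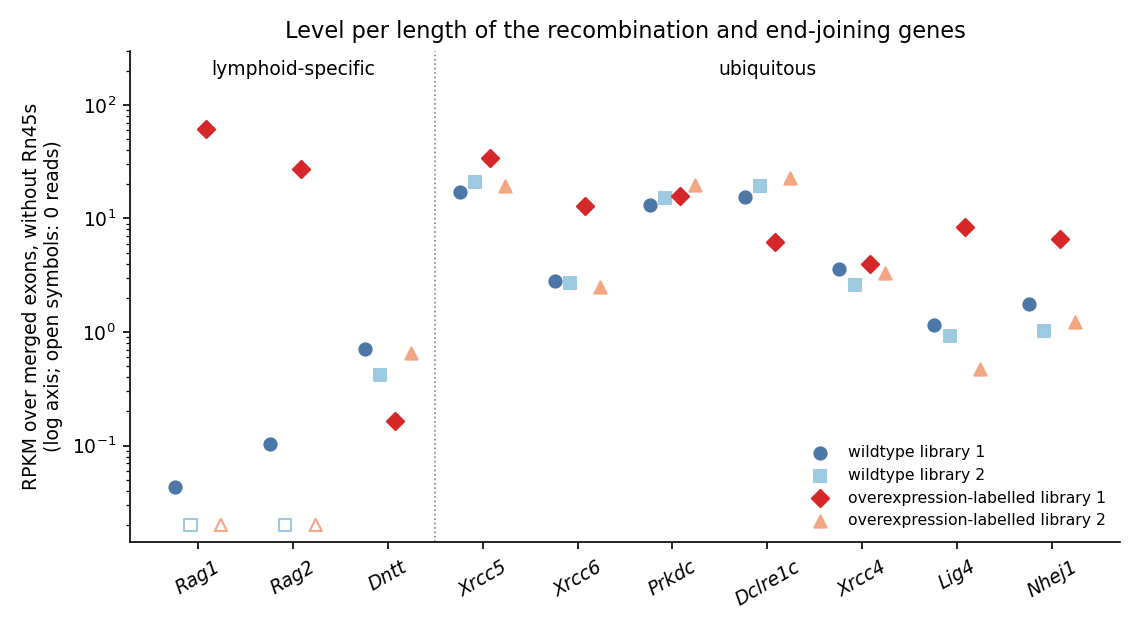
RPKM over merged exons, without Rn45s in the library total (log axis), for the 10 members, with 1 symbol per library and open symbols at the bottom for 0 reads. Rag1 and Rag2 reach 61.7 and 27.3 in labelled library 1 and are at or below 0.104 in the other 3, while the ubiquitous members lie between 0.474 and 34.1 in all 4 libraries.

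Levels were compared between genes only after division by length, as RPKM: CPM without Rn45s divided by the kilobases of merged exons. In the wildtype libraries the order was Xrcc5 (19 ± 2.6, SD, n = 2), Dclre1c (17.3 ± 2.85), Prkdc (14.2 ± 1.5), Xrcc4 (3.07 ± 0.688), Xrcc6 (2.75 ± 0.0862), Nhej1 (1.4 ± 0.54), Lig4 (1.05 ± 0.164), Dntt (0.563 ± 0.212), Rag2 (0.0519 ± 0.0734) and Rag1 (0.0215 ± 0.0304). The wildtype values of 4 neighbouring pairs overlapped: Xrcc5 with Dclre1c, Xrcc4 with Xrcc6, Nhej1 with Lig4, and Rag2 with Rag1. All 3 lymphoid-specific genes were thus below all 7 ubiquitous genes. When coding length replaced the exon length, Dclre1c, which has long untranslated exons, moved to the first place at 76.1 ± 12.6 (SD, n = 2) and the other 9 kept their order.

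In labelled library 1 the order was different. Rag1 had the highest level of the 10 at 61.7, which was 1.81 times that of Xrcc5 (34.1), and Rag2 was the third at 27.3. Dntt was last at 0.164, whereas in wildtype it lay above Rag1 and Rag2. With coding length in place of exon length Rag1 was at 131, 3.29 times Xrcc5 (39.7), and Rag2 came second at 59.2. Over merged exons the Rag1 level was 2.26 times the Rag2 level. In labelled library 2 the order began with Dclre1c (22.9), Prkdc (19.8) and Xrcc5 (19.2), and Rag1 and Rag2 shared the last place at 0.

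Summed over members, the lymphoid-specific genes made up 1.54% and 0.657% of the level of all 10 in the wildtype libraries, 50.3% in labelled library 1 and 0.94% in labelled library 2. The ubiquitous sum moved far less, from 54.8 and 62.6 in wildtype to 88.1 and 69.3 in labelled libraries 1 and 2. The lymphoid-specific sum was 0.86, 0.414, 89.2 and 0.658. These are descriptions of single libraries with no test. The libraries are bulk samples, in which a smaller share of cells with a gene and less RNA of it per cell cannot be told apart.

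**Figure D2:**
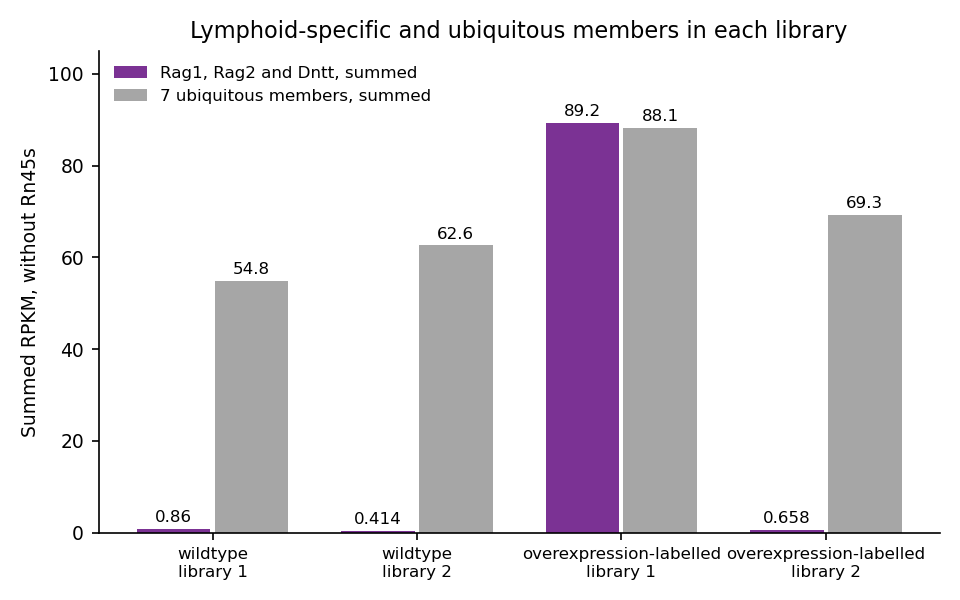
Summed level of the 3 lymphoid-specific members (purple) and the 7 ubiquitous members (grey) in each library, in RPKM, with no error bars as each bar is 1 library. The purple bar is 89.2 in labelled library 1 and at most 0.86 in the other libraries, while the grey bars run from 54.8 to 88.1.

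The ubiquitous members did not move as a block in labelled library 1. Of the 7, 4 rose against wildtype (Lig4, Xrcc6, Nhej1 and Xrcc5), 1 fell (Dclre1c) and 2 did not pass (Prkdc and Xrcc4), by limma on the deposited log2 values at an adjusted p of 0.05. All 7 were tested, and the median difference was 0.63, against -0.15 over all 12617 genes tested. Among all those genes 26.8% were called higher and 34.4% lower, so that a call is a common event in this comparison. Each such fit rests on 1 library against 2 and assumes that the lone library varies like the wildtype pair.

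The Ku heterodimer, the ring that slides onto broken DNA ends, is encoded by Xrcc5 (Ku80, chr1:72307421-72394952, plus strand) and Xrcc6 (Ku70, chr15:81987835-82040085, plus strand). Xrcc6 was counted in 177 and 127 reads in wildtype, 614 in labelled library 1 and 164 in labelled library 2. Its deposited values were 8.69, 8.68, 10.55 and 8.58, so that only labelled library 1 stood apart. The rise of 1.87 (SE 0.249, limma adjusted p = 2.64e-05) corresponded to 4.09 times the normalised wildtype reads.

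Xrcc5 changed less than its partner. It had 616 and 561 reads in wildtype, 925 in labelled library 1 and 715 in labelled library 2, and deposited values of 10.33, 10.65, 11.12 and 10.52. Labelled library 1 was the highest, and labelled library 2 lay between the wildtype values. The rise of 0.63 (SE 0.195, limma adjusted p = 0.0132) was 1.59 times the wildtype reads, and it no longer passed when genes with enough reads in 1 library alone were let into the fit (adjusted p = 0.0883).

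Prkdc (chr16:15637866-15842235, plus strand) encodes the catalytic subunit of the DNA-dependent protein kinase, which docks on Ku. It had 2431 and 2119 reads in wildtype, 2225 in labelled library 1 and 3808 in labelled library 2. The deposited values of 12.26, 12.53, 12.37 and 12.88 put labelled library 1 between the wildtype libraries and labelled library 2 above them. The difference of labelled library 1 from wildtype was -0.03 (SE 0.151, limma adjusted p = 0.878), and its sign turned to 0.12, 0.17 and 0.08 under the 3 other scalings.

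Dclre1c (chr2:3424131-3464130, plus strand) encodes Artemis, the nuclease that opens hairpin coding ends and is needed for V(D)J joining. It was the only one of the 8 members tested that fell in labelled library 1. Its reads were 2001 and 1897 in wildtype, 609 in labelled library 1 and 3110 in labelled library 2, with deposited values of 11.98, 12.37, 10.54 and 12.59. The difference of -1.64 (SE 0.178, limma adjusted p = 4.03e-06) was a 3.16-fold reduction of normalised reads. In the same library, then, the genes of the RAG nuclease were at their highest and that of the hairpin nuclease at its lowest.

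Lig4, which encodes the ligase of this pathway, had the largest rise of the ubiquitous members. It was counted in 85 and 51 reads in wildtype, 464 in labelled library 1 and 36 in labelled library 2, with deposited values of 7.83, 7.63, 10.17 and 6.97. The rise of 2.44 (SE 0.304, limma adjusted p = 1.45e-05) was 6.91 times the wildtype reads. Its obligate partner Xrcc4 (chr13:89774027-90089608, minus strand), a scaffold that stabilises the ligase, had 211, 115, 179 and 202 reads in the order wildtype 1, wildtype 2, labelled 1, labelled 2. The Xrcc4 difference of 0.17 (SE 0.295, limma adjusted p = 0.626) was smaller than the gap between the wildtype libraries, at 8.91 and 8.56.

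Nhej1 (chr1:74967139-75125200, minus strand) encodes XLF, which bridges ends together with XRCC4. It was a low gene, with 28 and 12 reads in wildtype, 79 in labelled library 1 and 20 in labelled library 2. The rise of 1.35 (SE 0.406, limma adjusted p = 0.0112) was 4-fold in normalised reads, with a counting interval of 2.7 to 6.01. Like that of Xrcc5, it lost its call under the 1-library minimum (adjusted p = 0.0519).

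**Figure D3:**
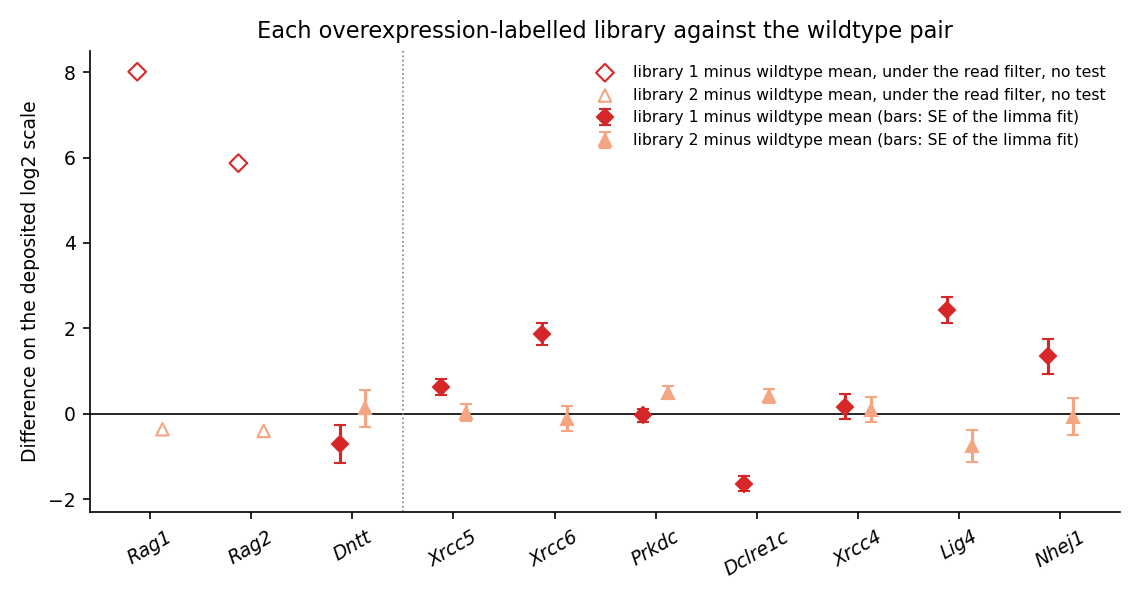
Difference of each overexpression-labelled library from the mean of the 2 wildtype libraries on the deposited log2 scale, with bars of 1 SE from the limma fit and open symbols for genes with too few reads to test. Library 1 (red) runs from -1.64 for Dclre1c to 2.44 for Lig4 among tested members, with Rag1 at 8.01 and Rag2 at 5.87, while library 2 (orange) stays between -0.76 and 0.49.

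In labelled library 2 none of the 8 members tested passed the limma test against wildtype, where 1.66% of all genes did. The widest differences were -0.76 for Lig4 (SE 0.371, limma adjusted p = 0.341), 0.49 for Prkdc (SE 0.153, limma adjusted p = 0.143) and 0.42 for Dclre1c (SE 0.171, limma adjusted p = 0.258). At an unadjusted p under 0.05, 2 of the 8 would have been counted, Prkdc and Dclre1c, where 15.9% of all genes were. Prkdc passed in limma-voom on the recovered reads (adjusted p = 0.0436), the one call there among the 8, where 4.87% of all genes were called.

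Set directly against each other, 1 library against 1, the overexpression-labelled libraries gave 6 calls among the 8 members tested. All of the spread behind these calls comes from the wildtype pair and the fit across genes, so the p-values compare 2 libraries and assume that each varies like wildtype. Lig4 was 3.20 higher in labelled library 1 (SE 0.383, limma adjusted p = 1.83e-05) and Xrcc6 1.97 higher (SE 0.301, limma adjusted p = 0.000139). Nhej1 was 1.42 higher (SE 0.477, limma adjusted p = 0.0236) and Xrcc5 0.60 higher (SE 0.227, limma adjusted p = 0.0402). Dclre1c was lower, at -2.05 (SE 0.201, limma adjusted p = 3.01e-06), and so was Prkdc, at -0.52 (SE 0.174, limma adjusted p = 0.0238). Of all genes 22.4% were called higher and 30.1% lower in this comparison. The Prkdc call did not hold under the 3 other scalings, with adjusted p-values of 0.102, 0.147 and 0.0741, and the Xrcc5 call did not hold with a pseudocount of 0.5 (adjusted p = 0.0573). With the read minimum asked of 1 library only, Nhej1 (adjusted p = 0.0713), Xrcc5 (0.137) and Prkdc (0.124) all lost their calls.

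Grouped as the study's design has them, 2 wildtype against 2 overexpression-labelled libraries, no member passed. The smallest limma adjusted p among the 8 was 0.726, for Xrcc6, none of the 8 had an unadjusted p under 0.05, and 0% of all genes were called, with 280 of 12617 at an unadjusted p under 0.05; limma-voom also called none, with 186. None of the 8 members had groups that did not overlap, against 42.6% of all genes. Without labelled library 2 the count of members is the 5 given above, and without labelled library 1 it is 0.

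Members that share exonic sequence with a neighbour were read beside it, since the counting's use of strand is not given in the sources used here. Xrcc6 shares 344 exonic bases with the opposite-strand gene Desi1, which had 145, 106, 714 and 226 reads in the order wildtype 1, wildtype 2, labelled 1, labelled 2 and rose by 2.31 in labelled library 1 (SE 0.254, limma adjusted p = 4.48e-06). Dclre1c shares 357 bases with the opposite-strand gene Suv39h2, which had 499, 330, 183 and 618 reads and fell by 1.05 (SE 0.231, limma adjusted p = 0.00152). Both neighbours thus went the way of their member, and how reads of the shared stretches were counted is not known. Xrcc4 shares 112 bases with Tmem167, which did not pass (0.25, SE 0.162, limma adjusted p = 0.194).

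At the recombinase locus itself, Iftap, which runs through the region and shares 80 exonic bases with Rag1 and 208 with Rag2, had 2, 4, 67 and 6 reads. That is far below the 4328 and 993 reads of Rag1 and Rag2 in labelled library 1. The neighbours differed in direction. Traf6, which encodes a signalling ubiquitin ligase, fell by 1.12 in labelled library 1 (SE 0.142, limma adjusted p = 1.76e-05), from 3273 and 2639 reads to 1343. Prr5l fell by 1.07 (SE 0.44, limma adjusted p = 0.0488) at 50, 18 and 6 reads, while Commd9 rose by 1.51 (SE 0.37, limma adjusted p = 0.0032) at 44, 25 and 136. On the Rag2 side and farther away, Api5 rose by 0.98 (SE 0.153, limma adjusted p = 0.000102), and Lrrc4c, too low to test, had 0 reads in both wildtype libraries, 157 in labelled library 1 and 4 in labelled library 2.

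Among the 5 genes whose 4 values lay nearest to those of Rag1, by Euclidean distance over the deposited log2 values, were Gfra2 (1.07), Vpreb2 (1.11), Tmprss3 (1.28) and Amotl1 (1.34). For Rag2 the nearest 5 were Gfra1 (0.29), Srl (0.53), Drc7 (0.73), Gm595 (0.77) and Epha5 (0.81). Each gene named here had between 916 and 5186 reads in labelled library 1 and at most 6 in any other library. Vpreb2 encodes part of the receptor that pre-B cells carry before they make a light chain. A pattern of at least 100 reads in labelled library 1 and no more than 9 over the remaining 3 libraries was seen in 89 of 24411 genes (0.365%), and 4 of those had more normalised reads than Rag1.

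Markers of the stages at which RAG is made differed between the libraries in the same way. The 10 pro-B and pre-B markers summed to 51, 30.3, 6946 and 13.6 CPM in wildtype libraries 1 and 2 and labelled libraries 1 and 2. Igll1, Vpreb1 and Vpreb2, which build the surrogate light chain, had no read in either wildtype library or in labelled library 2, and 36095, 9765 and 2398 reads in labelled library 1. Of the 6 tested, 5 rose in labelled library 1 and Kit fell (-1.80, SE 0.402, limma adjusted p = 0.00174). The 8 mature B markers summed to 28859, 28140, 821 and 26193 CPM and 7 of the 8 fell. The part of this difference in stage markers in the values of the 10 members was not tested. Labelled library 2 differed in another list, the neutrophil markers, at 8.89, 133, 183 and 1983 CPM, of which all 7 tested rose there (again with no call under the 1-library minimum).

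**Figure D4:**
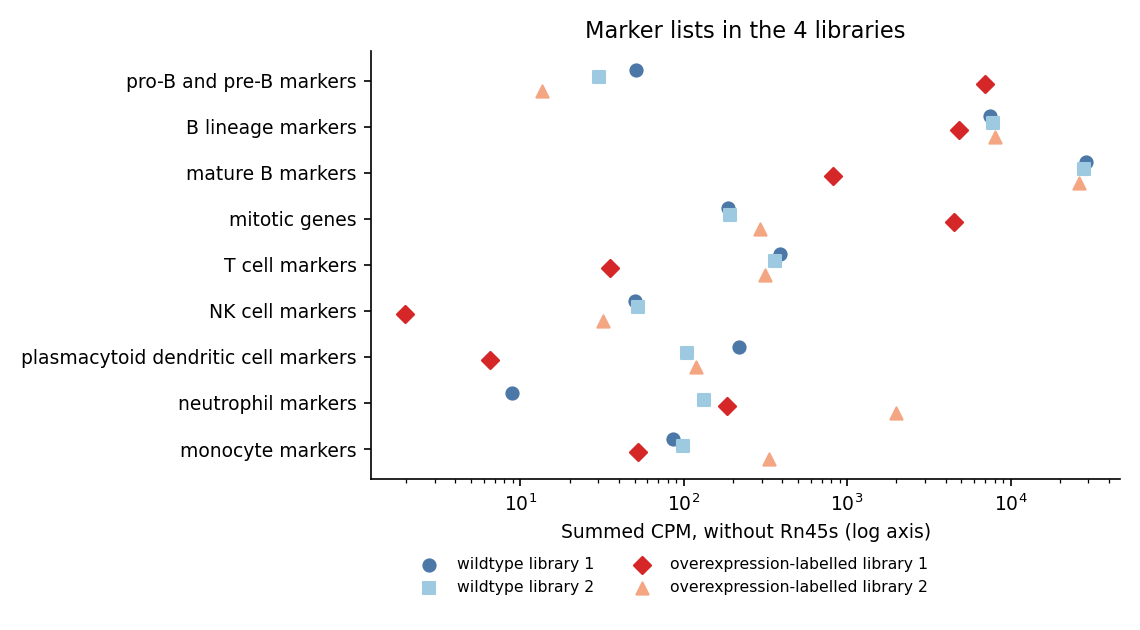
Summed CPM, without Rn45s, of 9 marker lists (log axis), with 1 symbol per library. Labelled library 1 has the highest pro-B and pre-B (6946) and mitotic (4504) sums and the lowest mature B sum (821), and labelled library 2 has the highest neutrophil sum (1983).

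The wider pathway was read through lists of genes, all compared for labelled library 1 against wildtype with limma, where 26.8% of all genes were called higher and 34.4% lower. Of the 11 genes for RAG cofactors and RAG protein turnover, 10 rose and none fell, with a median difference of 1.37. Hmgb1 and Hmgb2, which bend DNA for the RAG complex, rose by 1.44 (SE 0.131, limma adjusted p = 7.79e-07) and 1.11 (SE 0.121, limma adjusted p = 4.16e-06). The largest rises were those of Ccna2 (4.26) and Cdk2 (1.85), the cyclin A kinase that marks RAG2 for destruction, and of Skp2 (1.93) and Cul4a (1.54), parts of ubiquitin ligases. Cul1 did not pass (0.09). Several of these are also cell cycle genes, and the 12 mitotic genes all rose, with a median of 3.98 and summed levels of 186, 192, 4504 and 291 CPM.

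Regulators of Rag transcription were split. Of 21 genes tested, 9 rose and 8 fell, with a median of 0.34. Lef1 (5.40) and Myb (4.74), factors of early lymphocyte development, rose the most, followed by Cbfb (1.64), the partner of the Runx proteins, and the kinase gene Abl1 (1.55). Tcf3 (1.41), which encodes the E-box factor E2A, also rose. Satb1 (-2.54), Foxp1 (-1.90), Nfkb1 (-1.73) and Ets1 (-1.57) fell the most. Foxo1, whose protein is a known activator of Rag transcription, fell too (-1.51, SE 0.131, limma adjusted p = 4.77e-07), with 13637 and 8287 reads in wildtype, 3715 in labelled library 1 and 6821 in labelled library 2. Pax5 (0.96) and Ebf1 (0.50) rose. In labelled library 2, limma called Lef1 (-1.51), Bach2 (-1.12), Foxo1 (-0.89) and Satb1 (-0.80) lower and none of the list higher. In limma-voom, Ets1 (-0.47) was also called lower and Rel (0.43) higher. The 4 limma calls were lost with no filter on low reads. They were also lost with the read minimum asked of 1 library only, where no gene of any kind was called in labelled library 2. The Lef1 call was also lost with recomputed size factors (adjusted p = 0.0916), totals without Rn45s (0.0963) and pseudocounts of 0.5 (0.0823) and 8 (0.051).

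Beyond the 7 core factors, 2 of 10 accessory end-joining genes rose and 3 fell, with a median of 0.04, shares near the 26.8% and 34.4% of all genes. Wrn (1.24), a helicase and exonuclease, and Aplf (1.07), a scaffold that binds Ku, rose. Cyren (-1.54), an inhibitor of end joining, Polm (-1.32), a polymerase that fills in at junctions, and Aptx (-0.91), which removes adenylate from failed ligations, fell. Polm is the closest relative of Dntt, and its reads were 402 and 279 in wildtype, 119 in labelled library 1 and 463 in labelled library 2. More genes of this list were called higher under the other scalings. Fewer were called higher with pseudocounts of 0.5 and 8 and with the read minimum asked of 1 library only. The number called lower was the same under all of these settings.

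Of the 9 genes of alternative end joining, the back-up route that uses other ligases, 6 rose and 1 fell, with a median of 0.81. Lig1 (2.83), Fen1 (1.62), Xrcc1 (1.46) and Lig3 (0.95) rose the most, and Ercc4 (-0.66) fell; with library totals without Rn45s as the scale, 7 rose and none fell. Lig1 and Fen1 are also replication genes. Among 15 break-sensing and end-protection genes 7 rose, led by the histone gene H2ax (3.49), Trp53 (2.15), Rnf168 (1.90) and Rad50 (1.44). Atm, the kinase that signals RAG breaks, did not pass (0.25, SE 0.141, limma adjusted p = 0.144). Shld2 (-0.69) fell only on the scale of the authors: under the 3 other scalings no gene of this list fell and 10 rose.

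Locus folding and accessibility genes, of which only some encode products that bring distant segments together, rose in 9 of 11 cases with a median of 1.08. Ezh2 (4.12), Smarca4 (1.94), Smc3 (1.84) and Rad21 (1.21) had the largest rises and Nipbl (-0.62), the cohesin loader, fell. Ctcf rose by 1.11 (SE 0.135, limma adjusted p = 1.08e-05). Of the 11 class switching and hypermutation genes, which act on immunoglobulin genes in mature B cells, 6 rose and none fell, with a median of 1.07. Among those that rose were the repair genes Exo1 (2.62), Ung (2.41) and Polh (2.05). In labelled library 2 none of the 67 genes tested from the accessory, alternative end joining, break-sensing, locus folding, cofactor and class switching lists passed limma, and 12 had an unadjusted p under 0.05, a share near the 15.9% of all genes. In limma-voom 4 of them passed, among them Trp53 (0.95), Atm (0.55) and Mdc1 (0.60), named here after their values were seen, where 4.87% of all genes passed. Trp53 also passed limma with library totals as the scale (0.88, adjusted p = 0.0293) and with a minimum of 5 CPM (0.90, adjusted p = 0.0464).

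**Figure D5:**
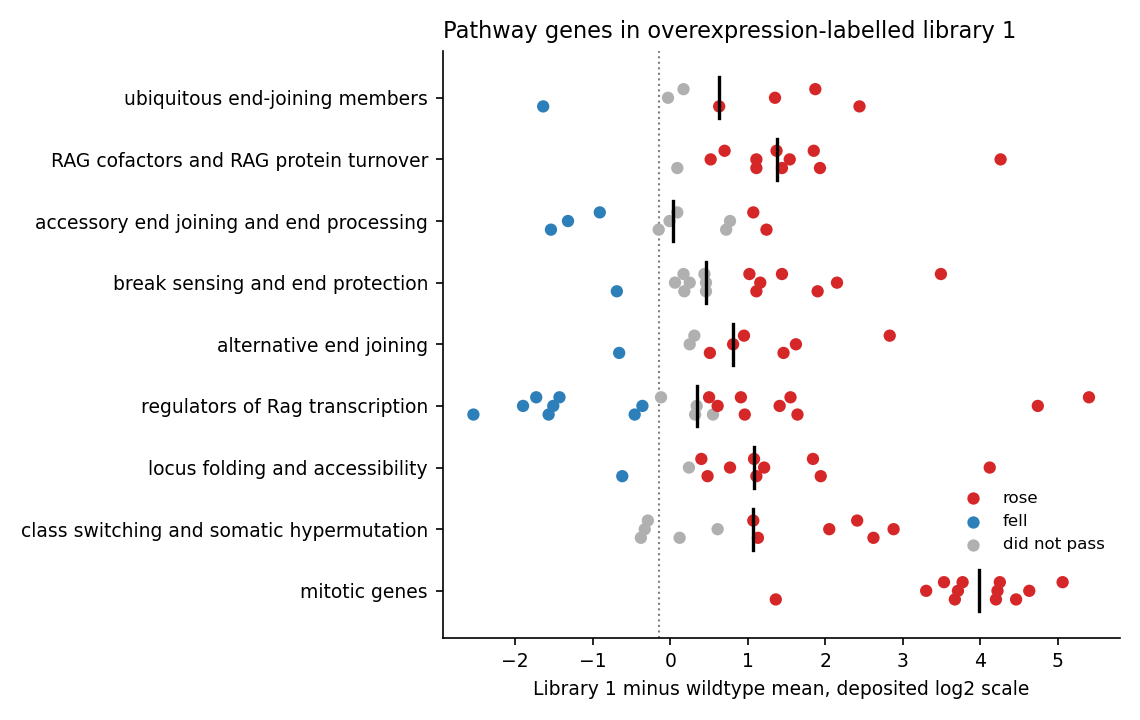
Difference of labelled library 1 from the wildtype mean on the deposited log2 scale for each tested gene of 9 lists (red: rose, blue: fell, grey: did not pass), with a black bar at each list's median and a dotted line at the median of all genes tested (-0.15). The median of the 7 ubiquitous members is 0.63, between those of the accessory end-joining genes (0.04) and of the mitotic genes (3.98).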

How the data were processed

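RNA of sorted B220-positive bone marrow cells was sequenced, 2 libraries per group. The deposited tables hold variance-stabilised log2 values, and STAR, HTSeq, DESeq2 and mm10 are named in the submitters' processing notes, without versions or settings. Library numbers follow accession order and pair nothing. Each value was turned back into reads, and 100% came out whole within 0.01 reads. In the order wildtype 1, wildtype 2, labelled 1, labelled 2, totals were 20146878, 14196665, 15281839 and 20356404. The 12617 genes reaching 10 reads, scaled to a library of median size, in 2 libraries and 15 reads over all 4 were fitted with limma 3.58.1 in R 4.3.3 (trend, two-sided, Benjamini-Hochberg over all of them, threshold 0.05) on the deposited log2 values. The design had named a count test in case the files held counts. Ratios of normalised reads carry 95% exact binomial intervals, and floors are 3 reads. Levels (RPKM) used GENCODE exon lengths.

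The 10 members and the 21 gene lists were chosen with earlier results of these data known. All members are named; of each pathway list, up to 4 genes with the largest change in each direction in labelled library 1, plus Hmgb1, Hmgb2, Tcf3, Foxo1, Pax5, Ebf1, Ctcf, Atm, Mdc1 and Cul1, which were chosen after their values were seen. Some genes that the rules would name are not reported here. Paxx and Shld3 had no row. Other scalings were library totals, totals without Rn45s and recomputed size factors, which put the median of all genes in labelled library 1 at -0.03, 0.02 and -0.06 in place of -0.15.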

Additional observations from a re-analysis of the deposited data

How the results depend on the processing

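The count of members called in labelled library 1 against wildtype was 5, and it was 0 with no filter on low reads (where no gene was called, 8162 had an unadjusted p under 0.05 and the smallest adjusted p was 0.0543) and 3 with a minimum of 5 CPM, where fewer members were tested. With 10 reads asked of 1 library, Xrcc5 and Nhej1 lost their calls, while Rag1 and Rag2 were called. In this fit and that of labelled library 1 against 2, both Rag genes entered through labelled library 1 alone and so had to differ. For labelled library 2 the count was 0 and it was 1 in limma-voom; for labelled library 1 against 2 it was 6, and 1 with no filter; with 10 reads asked of 1 library it was 5, with Rag1 and Rag2 among them and Xrcc5, Nhej1 and Prkdc lost. In the comparison of the groups as labelled, leaving out 1 library gave counts from 0 to 5.

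In that comparison the differences with 1 library left out ran from -0.36 to 8.01 for Rag1, -0.40 to 5.87 for Rag2, -0.71 to 0.13 for Dntt, -0.11 to 1.87 for Xrcc6, -0.03 to 0.49 for Prkdc, -1.64 to 0.42 for Dclre1c, -0.04 to 0.31 for Xrcc4, -0.76 to 2.44 for Lig4 and -0.07 to 1.35 for Nhej1, with both signs in each. For labelled library 1, with 1 wildtype library left out and no test, they ran from -0.16 to 0.11 for Prkdc and from -0.0016 to 0.35 for Xrcc4; Prkdc was 0.12 with library totals, 0.17 with totals without Rn45s and 0.08 with recomputed size factors. For labelled library 2 they ran from -0.04 to 0.30 for Dntt, -0.13 to 0.19 for Xrcc5, -0.07 to 0.28 for Xrcc4 and -0.26 to 0.12 for Nhej1. The share of lymphoid-specific members in labelled library 1 was 47.9% with the longest transcript and 53.7% with coding length.

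The causes of these shifts were not tested beyond the fewer genes or samples that some settings use. No paired analysis was possible because the labels carry no replicate numbers. Counts of 5 reads or fewer limit the values of Rag1 and Rag2 outside labelled library 1 and of Dntt within it.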
